A study of Rattus norvegicus with 12 samples.

Results

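Lungs of rats in hemorrhagic shock whose mesenteric lymph duct was open (T/HS, trauma and hemorrhagic shock) were compared with lungs of rats in the same shock whose duct had been tied off (T/HS-LDL). The samples were chosen by their labels, and the comparison covers every probe set on the array. It uses 6 of the 12 arrays of the series, which make up 4 of its 8 distinct samples. T/HS animals were male Sprague-Dawley rats of 300 to 420 g that had a laparotomy and were bled to a mean arterial pressure of 30 mmHg for 90 min, after which the shed blood was given back. T/HS-LDL rats went through the same trauma and shock after the efferent mesenteric lymphatic had been dissected free, ligated and divided. The sham groups, T/SS (duct open) and T/SS-LDL (duct ligated), were cannulated and had the laparotomy, but no blood was withdrawn. Lungs were taken 3 h after resuscitation, which was 4.5 h after shock began. In this model the state of the duct and anything that follows from its surgical ligation cannot be told apart.

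Mesenteric lymph drains the gut wall and reaches the venous blood through the thoracic duct, so the lung is the first capillary bed it meets. In rat models of trauma and hemorrhagic shock, lymph from the injured gut is known to prime neutrophils and to harm endothelial cells, and ligating the duct before shock lessens lung injury. The comparison asks which lung transcripts differ when that lymph could or could not reach the lung.

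Lung RNA was hybridised to Affymetrix rat genome arrays with 1 colour. All levels below are log2 of the deposited RMA intensity of a probe set, the summary of the short probes that report 1 transcript, and a difference of 1 on this scale is a 2-fold difference. In both groups replicates 1 and 3 were near-identical arrays: the robust SD of their log2 differences was 0.0495 and 0.0548, with 0 probe sets over 2-fold apart. The other 4 pairs within these groups had robust SDs of 0.196 to 0.232, and 155 to 256 probe sets were over 2-fold apart. Replicates 1 and 3 of each group were therefore averaged and counted as 1 sample. The labels call every array a biological replicate, but nothing says that they came from separate animals, so p-values measure only the spread between these samples. Pairs of arrays between T/HS and T/HS-LDL had robust SDs of 0.181 to 0.265, so samples of the same group were about as far apart as samples of different groups. Array medians lay between 660 and 677 intensity units in these 6 arrays. The lung markers Sftpc and Sftpb (surfactant proteins), Ager (alveolar type I cells) and Scgb1a1 (club cells) were between 14.52 and 14.99 in every sample, close to the highest values of the array, where differences cannot be measured reliably. Where levels of a gene are given in pairs, the averaged sample stands before replicate 2 (before replicate 1 in T/SS).

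No transcript passed the test between T/HS and T/HS-LDL. Of 8740 probe sets, 0 (0%) had a limma adjusted p under 0.05, and the smallest adjusted p was 0.677. At an unadjusted p under 0.05 there were 557 probe sets (6.37%), 172 higher in T/HS (1.97%) and 385 lower (4.41%). Differences below are given as T/HS minus T/HS-LDL, with the standard error from limma and n = 2 samples per group, and describe these samples. For 1610 probe sets (18.4%) each T/HS sample was higher than each T/HS-LDL sample, and for 1374 (15.7%) each was lower. With 2 samples per group, many probe sets would separate in this way without any difference between the groups. The distance between the groups was unequal. The gap, the smallest of the 4 differences between a T/HS and a T/HS-LDL sample, was over 0.3 for 131 probe sets that were lower in T/HS and 38 that were higher. It was over 0.5 for 27 that were lower and 5 that were higher. The group means were over 2-fold apart for 41 probe sets higher in T/HS (0.469%) and 23 lower (0.263%), and without overlap as well for 19 probe sets higher in T/HS (0.217%) and 16 lower (0.183%). Against all 6 other samples, both T/HS samples were the lowest for 675 probe sets (7.72%) and the highest for 601 (6.88%). Both T/HS-LDL samples were the highest for 153 (1.75%) and the lowest for 121 (1.38%).

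**Figure D1:**
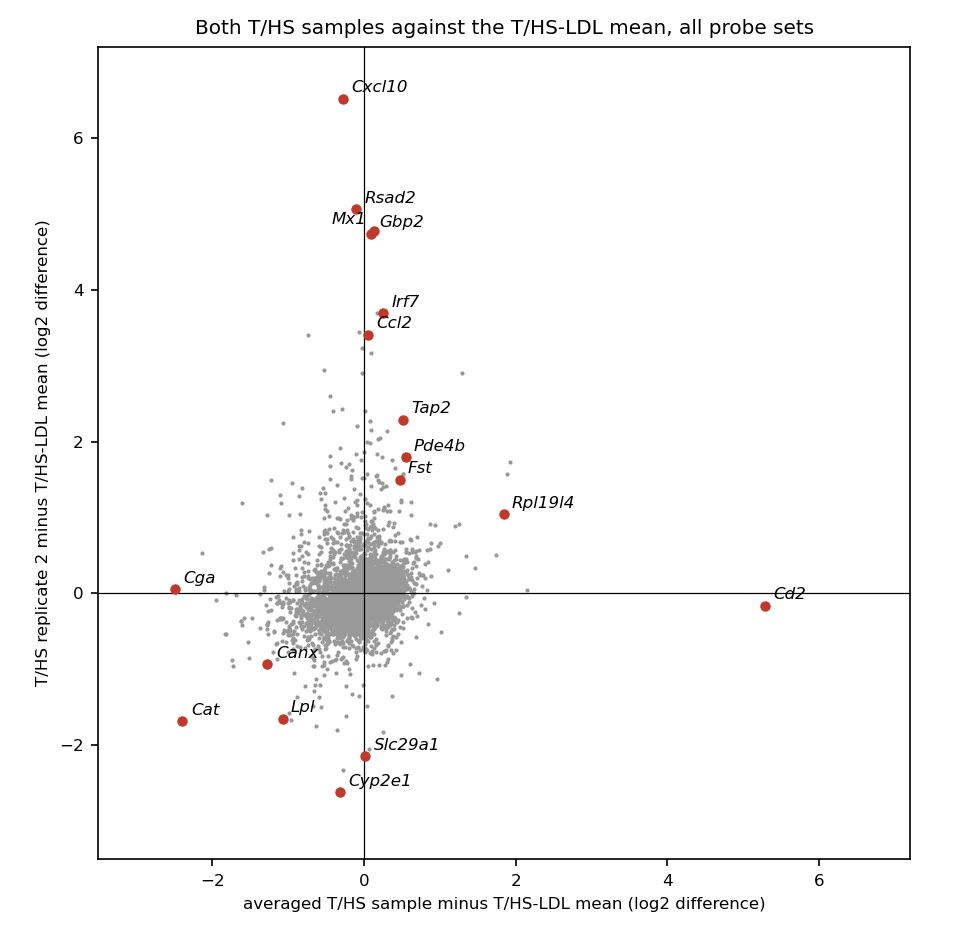
Each grey point is 1 probe set, with the averaged T/HS sample minus the T/HS-LDL mean on the x axis and T/HS replicate 2 minus the same mean on the y axis (log2 differences). Cat, Lpl and Canx lie low in both T/HS samples, Rpl19l4, Tap2, Fst and Pde4b high in both, and Cxcl10, Mx1, Rsad2 and Gbp2 are high in replicate 2 alone.

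Among transcripts that were lower in both T/HS samples, the widest gap belonged to Cat, catalase, the peroxisomal enzyme that breaks down hydrogen peroxide. Its level was 8.31 and 9.02 in T/HS, against 10.20 and 11.19 in T/HS-LDL, 11.08 and 11.09 in T/SS and 11.58 and 10.49 in T/SS-LDL. The difference was -2.04 ± 0.45, or 4.1-fold, and both T/HS samples lay below all 6 others. A second probe set gave 8.38 and 8.83 in T/HS, against 9.12 and 9.80 in T/HS-LDL (-0.86 ± 0.28), and a further, dim one differed by -0.17 ± 0.09. The cytosolic superoxide dismutase Sod1 had 12.54 and 13.06 in T/HS, against 13.53 and 13.51 in T/HS-LDL (-0.72 ± 0.16), with -0.28 ± 0.12 and 0.09 ± 0.22 on its other probe sets. Gstm2, a glutathione transferase, and Gpx2, a glutathione peroxidase, differed by -0.44 ± 0.18 and -0.43 ± 0.17, again without overlap. Of 30 measured genes of oxidative stress defence, 26 had lower means in T/HS and 12 were lower without overlap (40%), while 0 were higher without overlap. Over all 4736 genes, with 1 probe set each, 45.9% had lower means and 54.1% higher, and 16.1% were lower without overlap and 17.3% higher. An unadjusted p under 0.05 was reached by 4.69% of genes that were lower and 1.96% that were higher. The median difference was -0.15 for the list and 0.02 for all genes. Hmox1 (heme oxygenase) and Sod2 (mitochondrial superoxide dismutase), 2 inducible members named after their values were seen, were high in T/HS replicate 2. Hmox1 was 11.36 and 12.98 in T/HS, against 12.02 and 11.73 in T/HS-LDL. Sod2 was 10.70 and 12.83 in T/HS, against 11.28 and 11.81 in T/HS-LDL, and for both genes the groups overlapped.

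Some genes of lipid handling were also among the lower ones. Lpl, lipoprotein lipase, which frees fatty acids from circulating triglyceride, had 12.06 and 11.48 in T/HS, against 12.99 and 13.29 in T/HS-LDL, 13.07 and 12.82 in T/SS and 13.16 and 12.55 in T/SS-LDL. Its difference of -1.36 ± 0.26 (2.57-fold) came with -1.31 ± 0.41 and -1.18 ± 0.43 on the other probe sets, and on all of them both T/HS samples were below every other sample. Acadm, the medium-chain acyl-CoA dehydrogenase of mitochondrial fat oxidation, had 10.47 and 10.18 in T/HS, against 11.37 and 10.90 in T/HS-LDL (-0.81 ± 0.22). Pex11a, a peroxisome proliferation factor, was at 9.54 and 9.80 in T/HS, against 10.10 and 11.25 in T/HS-LDL (a 2.01-fold lower mean, with an SE of 0.36 on the log2 scale). Decr1, a dienoyl-CoA reductase, differed by -0.40 ± 0.13. These groups did not overlap, and T/HS was the lower one each time. Of 29 measured genes of lipid uptake and fat storage, the list that holds Lpl, 12 had higher and 17 lower means, and 4 were higher (13.8%) and 5 lower (17.2%) without overlap, close to the shares among all genes. The median of -0.13 was 0.04 without T/HS replicate 2. Of 26 measured genes of fatty acid oxidation and peroxisomes, 11 had higher and 15 lower means. Without overlap 10 were lower (38.5%, against 16.1% of all genes) and 0 higher. The median of -0.11 for this list was 0.03 without T/HS replicate 2, and -0.03 without the averaged T/HS-LDL sample. In sham lungs its median for T/SS-LDL minus T/SS was 0.11. Its shock medians were -0.11 for T/HS minus T/SS and -0.16 for T/HS-LDL minus T/SS-LDL.

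Subunits of the mitochondrial respiratory chain showed the same direction. Ndufc1, an accessory subunit of complex I, had 10.72 and 11.06 in T/HS, against 11.68 and 11.67 in T/HS-LDL, 11.71 and 11.91 in T/SS and 12.12 and 11.93 in T/SS-LDL. It differed by -0.78 ± 0.15, and by -0.67 ± 0.15 on a second probe set. Ndufab1, the acyl carrier subunit, had 8.19 and 8.32 in T/HS, against 8.96 and 9.09 in T/HS-LDL (-0.77 ± 0.18), with -0.47 ± 0.13 and -0.76 ± 0.22 on its other probe sets. Further accessory subunits lay below in both T/HS samples, among them Ndufb3 (-0.66 ± 0.14), Ndufa6 (-0.67 ± 0.20), Ndufb10 (-0.53 ± 0.15) and Ndufb9 (-0.48 ± 0.12). Ndufb9 was named after its values were seen, and a second probe set of Ndufa6 overlapped (-0.27 ± 0.21). Of 44 measured respiratory chain and ATP synthase genes, 31 had lower means in T/HS. Without overlap 20 were lower (45.5%, against 16.1% of all genes) and 3 higher (6.82%, against 17.3%). Both T/HS samples were below all 6 others for 18 of the 44, and for 7.72% of all probe sets. The list's median was -0.16, and without T/HS-LDL replicate 2 it was -0.07. In sham lungs the ligated group was the higher one too, with a median of 0.14 for T/SS-LDL minus T/SS. The shock differences were alike in both duct states, with medians of -0.13 for T/HS minus T/SS and -0.12 for T/HS-LDL minus T/SS-LDL. Atp5pb, an ATP synthase subunit, had 11.89 and 12.47 in T/HS, against 10.13 and 12.40 in T/HS-LDL, with the averaged T/HS-LDL sample low.

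**Figure D2:**
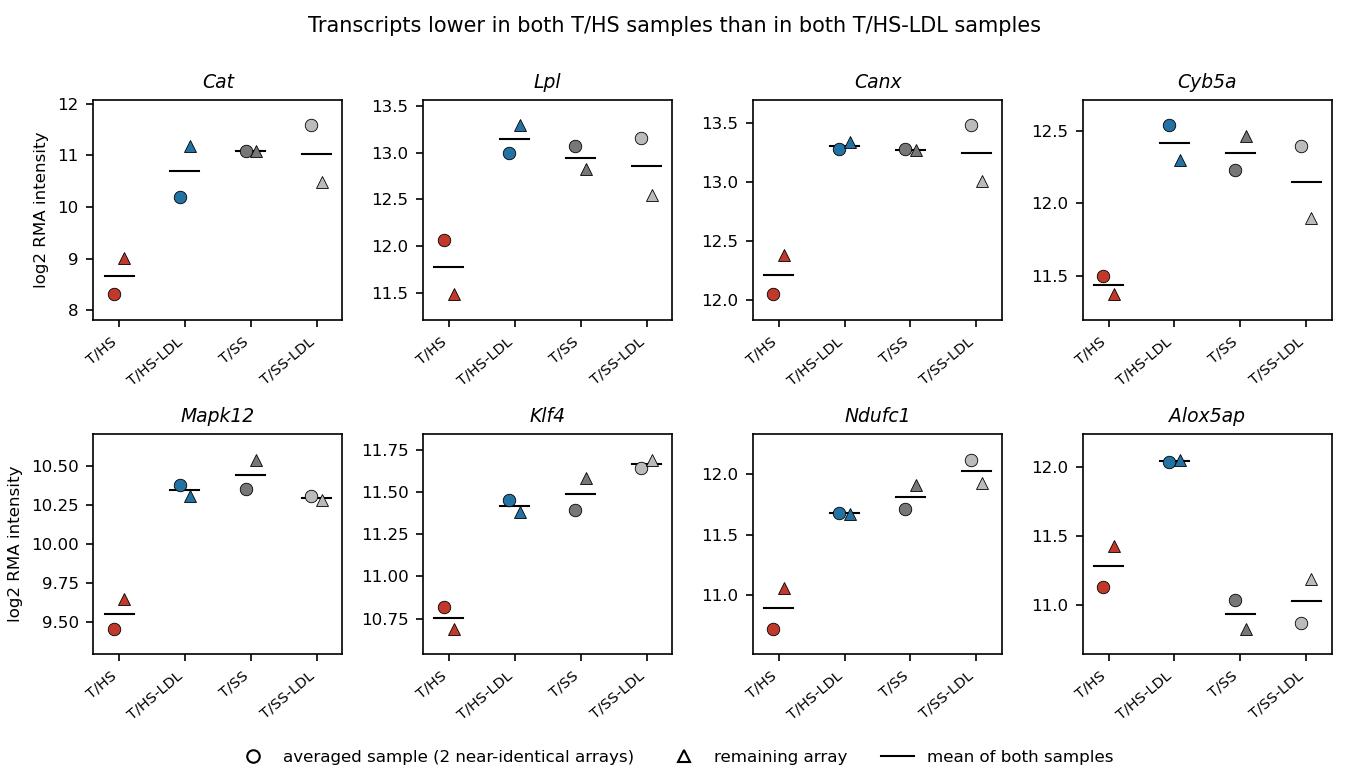
Log2 RMA intensity (y axes) of 8 transcripts by sample in the 4 groups (x axes). Circles are the averaged samples, triangles the remaining arrays and bars the mean of both. Both T/HS samples lie below both T/HS-LDL samples in every panel. For Alox5ap it is the T/HS-LDL samples that stand above all the rest.

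Chaperones of the endoplasmic reticulum bind newly made secretory and membrane proteins. Many of their genes carry the ER stress response element in the promoter, a motif read by the factors of the unfolded protein response. The motif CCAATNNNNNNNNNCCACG, searched on both strands of the 250 bases before the gene start, occurs in 22 of 33469 rat promoters (0.0657%). It is present in 4 of the 15 list members with an entry: Canx, Hspa5, Calr and Hsp90b1. The promoters of the 2 genes described first are shown with the motif in capitals, from RefSeq's GRCr8 build: Canx (chr10:35157858-35158107, minus strand) and Hspa5 (chr3:38452766-38453015, plus strand).
Canx: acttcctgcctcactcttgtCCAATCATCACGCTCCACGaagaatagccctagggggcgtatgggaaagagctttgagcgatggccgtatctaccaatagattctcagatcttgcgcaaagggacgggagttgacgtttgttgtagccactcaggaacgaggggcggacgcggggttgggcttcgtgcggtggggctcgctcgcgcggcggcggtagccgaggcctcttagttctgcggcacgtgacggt
Hspa5: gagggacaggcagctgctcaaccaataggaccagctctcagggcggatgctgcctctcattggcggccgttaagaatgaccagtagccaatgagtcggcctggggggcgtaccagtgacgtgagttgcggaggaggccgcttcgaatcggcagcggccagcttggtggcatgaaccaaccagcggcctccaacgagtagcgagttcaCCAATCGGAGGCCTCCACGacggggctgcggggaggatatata

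Canx, calnexin, a chaperone of glycoproteins, had 12.05 and 12.38 in T/HS, against 13.28 and 13.34 in T/HS-LDL, 13.28 and 13.27 in T/SS and 13.48 and 13.01 in T/SS-LDL. It differed by -1.10 ± 0.18 (2.14-fold). Both T/HS samples were below all 6 others, and 2 more probe sets gave -1.31 ± 0.30 and -1.18 ± 0.23. A further pair did not separate the groups: 1 differed by -0.52 ± 0.25 and the other by 0.03 ± 0.15. Hspa5, the chaperone BiP, had 11.84 and 12.18 in T/HS, against 12.59 and 12.25 in T/HS-LDL (-0.42 ± 0.23), and 8.74 and 10.03, against 10.96 and 10.17, on another probe set (-1.18 ± 0.42). A further, dim probe set of Hspa5 differed by -0.10 ± 0.12. Pdia6, a protein disulfide isomerase, differed by -0.39 ± 0.10 without overlap. Calr (calreticulin) differed by -0.11 ± 0.10 on its brightest probe set and by -0.17 ± 0.13 and -0.37 ± 0.23 on the others, all without overlap. Hsp90b1 (the chaperone GRP94, named after its values were seen) differed by 0.00 ± 0.17 on its brightest probe set. The dimmer probe sets of Hsp90b1 gave -0.50 ± 0.34 and -0.68 ± 0.25, so genes with the motif did not all show the same size of difference. Of 18 measured genes of this list, 16 had lower means in T/HS, and the median was -0.19. Without overlap 7 were lower (38.9%, against 16.1% of all genes) and 1 was higher (5.56%, against 17.3%).

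Heat shock proteins and cytosolic chaperones were lower in T/HS by the list's count, but 1 sample weighed heavily in it. The list is not purely cytosolic, since it also holds Hspd1. Dnaja2, a partner of the chaperone Hsp70, had 10.45 and 11.25 in T/HS, against 11.68 and 11.76 in T/HS-LDL (-0.87 ± 0.27), and differed by -0.53 ± 0.15 and -0.48 ± 0.13 on its other probe sets. St13, which bridges Hsp70 and Hsp90, differed by -0.59 ± 0.24 and -0.44 ± 0.11, all without overlap. For Hspd1, the mitochondrial chaperonin, the differences were -0.55 ± 0.23 and -0.83 ± 0.21. The inducible Hspa1a (Hsp70) behaved otherwise: it was 10.80 and 10.51 in T/HS, against 12.58 and 10.36 in T/HS-LDL, and 10.29 to 10.53 in the sham samples. Only the averaged T/HS-LDL sample was high, so the groups overlapped. That sample was also the highest for Hsph1 (12.04, against 10.64 in T/HS-LDL replicate 2) and, among genes named after their values were seen, for Dnaja1 (12.95, against 11.76) and the stress factor Ddit3 (10.54, against 9.36). Of 18 measured genes, 16 had lower means in T/HS, 8 were lower without overlap (44.4%, against 16.1% of all genes) and 0 higher. The median of -0.28 was -0.08 without the averaged T/HS-LDL sample.

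**Figure D3:**
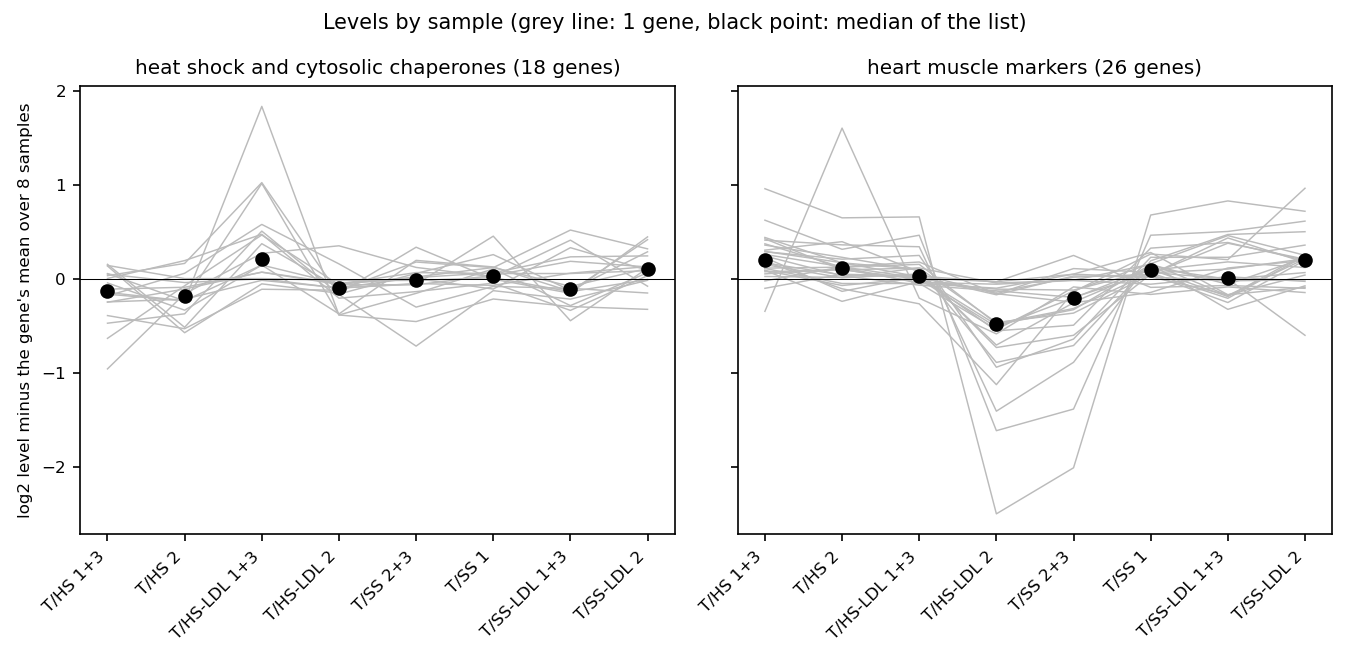
Levels of the heat shock list (left, 18 genes) and of the heart muscle list (right, 26 genes) in each of the 8 samples (x axes), as log2 level minus the gene's own mean over the samples (y axis). Each grey line joins the values of 1 gene and black points are medians. Several heat shock genes peak in the averaged T/HS-LDL sample, and heart muscle genes are low in T/HS-LDL replicate 2 and in the averaged T/SS sample.

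Individual regulators were lower in T/HS as well, although most of them came from lists with medians near 0. Mapk12, the stress kinase p38 gamma, had 9.46 and 9.65 in T/HS, against 10.38 and 10.31 in T/HS-LDL, and 10.28 to 10.54 in the sham samples. The difference was -0.79 ± 0.11, with both T/HS samples below all 6 others, but a second probe set differed by 0.01 ± 0.16. Kit, the receptor of stem cell factor, which marks mast cells, had 7.77 and 7.32 in T/HS, against 8.57 and 8.51 in T/HS-LDL and 8.88 to 9.42 in the sham samples. Its mean was 2-fold lower, with an SE of 0.21 on the log2 scale, and the other probe set differed by -0.39 ± 0.15. Klf4, a transcription factor of epithelium and endothelium, had 10.82 and 10.69 in T/HS, against 11.45 and 11.38 in T/HS-LDL (-0.66 ± 0.11), and -0.59 ± 0.12 on its other probe set. Both probe sets had both T/HS samples below every other sample. Klf9, a factor that glucocorticoids induce, had 13.13 and 13.16 in T/HS, against 13.68 and 13.94 in T/HS-LDL (-0.67 ± 0.15), while its second probe set overlapped (-0.56 ± 0.37). Pawr, a proapoptotic regulator, differed by -0.55 ± 0.10. Among 17 measured stress kinases and phosphatases, the list of Mapk12, 1 was higher (5.88%) and 4 lower (23.5%) without overlap. Over all genes 17.3% were higher and 16.1% lower without overlap. The median of -0.03 for the stress kinase list was -0.15 without the averaged T/HS-LDL sample. Among 23 immediate early genes, the list of Klf4, 19 had higher means in T/HS, 1 was higher (4.35%) and 2 lower (8.7%) without overlap. The median of these 23 was 0.07. Among 17 glucocorticoid responsive genes, the list of Klf9, 2 were higher (11.8%) and 2 lower (11.8%) without overlap. Their median was -0.02, and it was 0.11 without T/HS-LDL replicate 2 and -0.13 without the averaged T/HS-LDL sample. Of 11 measured mast cell markers, 4 were lower in T/HS without overlap (36.4%) and 0 higher. In whole lung, fewer cells of a type and less RNA per cell cannot be told apart.

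Further named transcripts that were lower in both T/HS samples had varied roles. Cyb5a, cytochrome b5, an electron donor in lipid metabolism, had 11.50 and 11.37 in T/HS, against 12.54 and 12.30 in T/HS-LDL (-0.99 ± 0.19), with -0.57 ± 0.12 and -0.22 ± 0.22 on its other probe sets. Maob, monoamine oxidase B, had 10.18 and 10.41 in T/HS, against 10.97 and 11.40 in T/HS-LDL (-0.89 ± 0.20). Tfpi, the inhibitor of tissue factor that restrains clotting, had 7.60 and 7.59 in T/HS, against 8.36 and 8.18 in T/HS-LDL (-0.68 ± 0.15). In each case both T/HS samples lay below every other sample on the probe set given first. Esm1, an endothelial proteoglycan, was at 7.75 and 7.27 in T/HS, against 8.11 and 9.15 in T/HS-LDL (-1.12 ± 0.34). Abcb1b, a drug efflux pump, differed by -1.27 ± 0.52, and the P450 Cyp2j3, which makes epoxides of arachidonic acid, by -0.61 ± 0.12. Tubb5, a beta tubulin, differed by -0.65 ± 0.22, but by 0.12 ± 0.31 on a second, brighter probe set. Irgq (-0.76 ± 0.14), Ivns1abp (-0.75 ± 0.12), Marchf8 (-0.67 ± 0.12), Zfp706 (-0.83 ± 0.14), Nktr (-1.08 ± 0.30) and Sult2a6 (-0.63 ± 0.11) were also lower without overlap. The Sult2a6 probe set reports a gene family, and its others differed by -0.15 ± 0.11 and -0.10 ± 0.11.

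For Alox5ap it was the ligated shocked group that stood apart, most clearly on 1 probe set. Alox5ap, the protein that hands arachidonic acid to 5-lipoxygenase for leukotriene synthesis, had 11.13 and 11.43 in T/HS, against 12.03 and 12.05 in T/HS-LDL, 11.04 and 10.83 in T/SS and 10.87 and 11.19 in T/SS-LDL. The difference between the shocked groups was -0.76 ± 0.16, while T/HS minus T/SS was 0.34 and T/HS-LDL minus T/SS-LDL was 1.01. A second probe set again had both T/HS-LDL samples above every other sample, but by less, and shock differences were similar in both duct states. It gave 12.70 and 12.35 in T/HS, against 12.89 and 12.85 in T/HS-LDL (-0.34 ± 0.15), with 11.92 and 11.84 in T/SS and 12.17 and 12.42 in T/SS-LDL, so that T/HS minus T/SS was 0.65 and T/HS-LDL minus T/SS-LDL was 0.57.

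Beside the lower genes stand 2 features of the measurement. Probe sets whose names mark the reverse complement of a database sequence made up 39.1% of all probe sets, 60.3% of the 131 lower ones with a gap over 0.3 and 31.6% of the 38 higher ones. The 3′ minus 5′ difference of control probe sets, a measure of RNA integrity, was 0.13 and 0.13 in T/HS, against 0.26 and 0.27 in T/HS-LDL, for beta-actin, and 0.98 and 1.21, against 1.29 and 1.32, for GAPDH. For hexokinase it was 1.07 and 1.49 in T/HS, against 1.08 and 1.30 in T/HS-LDL. The part of these features in the differences was not tested. Of the 20 genes with the widest gap among those lower in T/HS, 14 had other probe sets, and 15 of these 22 were lower without overlap too. Of the 20 with the widest gap among the higher ones, 12 had other probe sets, and 8 of these 19 were higher without overlap. These shares have no test, since the genes were picked for their gap.

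Genes that were higher in both T/HS samples included some of cytotoxic lymphocytes and some of MHC class I antigen presentation. Prf1, perforin, the pore protein of cytotoxic lymphocytes, had 8.99 and 9.41 in T/HS, against 8.19 and 8.54 in T/HS-LDL and 8.37 to 8.82 in the sham samples (0.83 ± 0.21). Klrk1, the activating receptor NKG2D, had 8.95 and 9.50 in T/HS, against 8.76 and 8.72 in T/HS-LDL (0.48 ± 0.18). RT1-M3-1, a nonclassical MHC class I gene, had 12.05 and 12.39 in T/HS, against 11.65 and 11.55 in T/HS-LDL (0.62 ± 0.16), though a dimmer probe set overlapped (0.30 ± 0.25). Both T/HS samples were above all 6 others for these genes on the first probe set. Probe sets of MHC genes may also bind related family members. Tap2, which carries peptides to MHC class I, was higher in both T/HS samples at 10.47 and 12.26, against 10.10 and 9.83 in T/HS-LDL (1.40 ± 0.50), with the larger distance in replicate 2. Of 17 measured T and NK cell markers, 15 had higher means in T/HS. Without overlap 6 were higher (35.3%, against 17.3% of all genes) and 0 lower (against 16.1%). Their median of 0.20 was 0.05 without the averaged T/HS sample.

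Among single genes that were higher in T/HS were some of signalling and secreted proteins. Fst, follistatin, which binds activins, had 11.12 and 12.15 in T/HS, against 10.54 and 10.74 in T/HS-LDL and 10.32 to 10.58 in the sham samples. Its difference of 0.99 ± 0.30 was matched by 1.03 ± 0.37 on a second probe set, with both T/HS samples above all others on each. Pde4b, a phosphodiesterase that degrades cyclic AMP in leukocytes, had 7.71 and 8.95 in T/HS, against 6.94 and 7.37 in T/HS-LDL (1.18 ± 0.40), while its brightest probe set overlapped (0.62 ± 0.52). Neurl3, a ubiquitin ligase, had 9.87 and 10.37 in T/HS, against 9.45 and 9.52 in T/HS-LDL and 9.36 to 9.42 in the sham samples (0.63 ± 0.16). Ccl4, a chemokine of macrophages and lymphocytes, had 8.22 and 9.15 in T/HS, against 8.03 and 8.04 in T/HS-LDL (0.65 ± 0.27). Each of these was highest in T/HS replicate 2. The cytokine Il1b was higher in all shocked samples: 9.91 and 11.04 in T/HS, against 9.48 and 9.76 in T/HS-LDL, 8.25 and 8.05 in T/SS and 8.32 and 8.47 in T/SS-LDL. It differed by 0.86 ± 0.33 between the shocked groups, but its other probe sets overlapped (0.55 ± 0.38 and 0.54 ± 0.37). Of 32 measured cytokines and their receptors, the list of Il1b, 6 were higher (18.8%) and 4 lower (12.5%) without overlap, with a median of 0.05. These shares are near those of all genes, 17.3% higher and 16.1% lower. Of 11 measured chemokines, 10 had higher means in T/HS, 4 were higher without overlap (36.4%) and 0 lower, with a median of 0.40 that was 0.14 without T/HS replicate 2 and 0.21 without the averaged T/HS sample.

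Other genes that were higher in T/HS had metabolic or acute phase roles. Por, the reductase that feeds electrons to P450 enzymes, had 12.28 and 11.42 in T/HS, against 11.04 and 10.82 in T/HS-LDL (0.92 ± 0.28), and 0.63 ± 0.22 on a second probe set. A brighter one did not separate the groups (0.01 ± 0.13). Serpina3n, an inhibitor of serine proteases that inflammation induces, had 10.43 and 11.14 in T/HS, against 9.83 and 10.05 in T/HS-LDL (0.85 ± 0.32). Gp2, a membrane glycoprotein, differed by 1.12 ± 0.43, and the cell cycle gene Ccnd2 (cyclin D2) by 0.66 ± 0.22, with 0.15 ± 0.14 on its other probe set. Apob, the core protein of lipoproteins, had 10.22 and 10.03 in T/HS, against 9.68 and 9.80 in T/HS-LDL (0.38 ± 0.12). A second probe set of Apob differed by 0.26 ± 0.09, but dimmer ones by only 0.04 ± 0.10, -0.03 ± 0.09 and 0.02 ± 0.18. Rpl19l4, annotated as a ribosomal protein gene, had 13.23 and 12.44 in T/HS, against 11.14 and 11.65 in T/HS-LDL and 9.86 to 11.57 in the sham samples (1.44 ± 0.46). Its levels spread over more than 1 unit within the sham group T/SS, where they were 9.86 and 11.22. Of 23 measured liver type and plasma protein genes, 8 were higher in T/HS without overlap (34.8%, against 17.3% of all genes) and 2 lower (8.7%, against 16.1%). Their median of 0.12 was 0.05 without T/HS-LDL replicate 2.

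**Figure D4:**
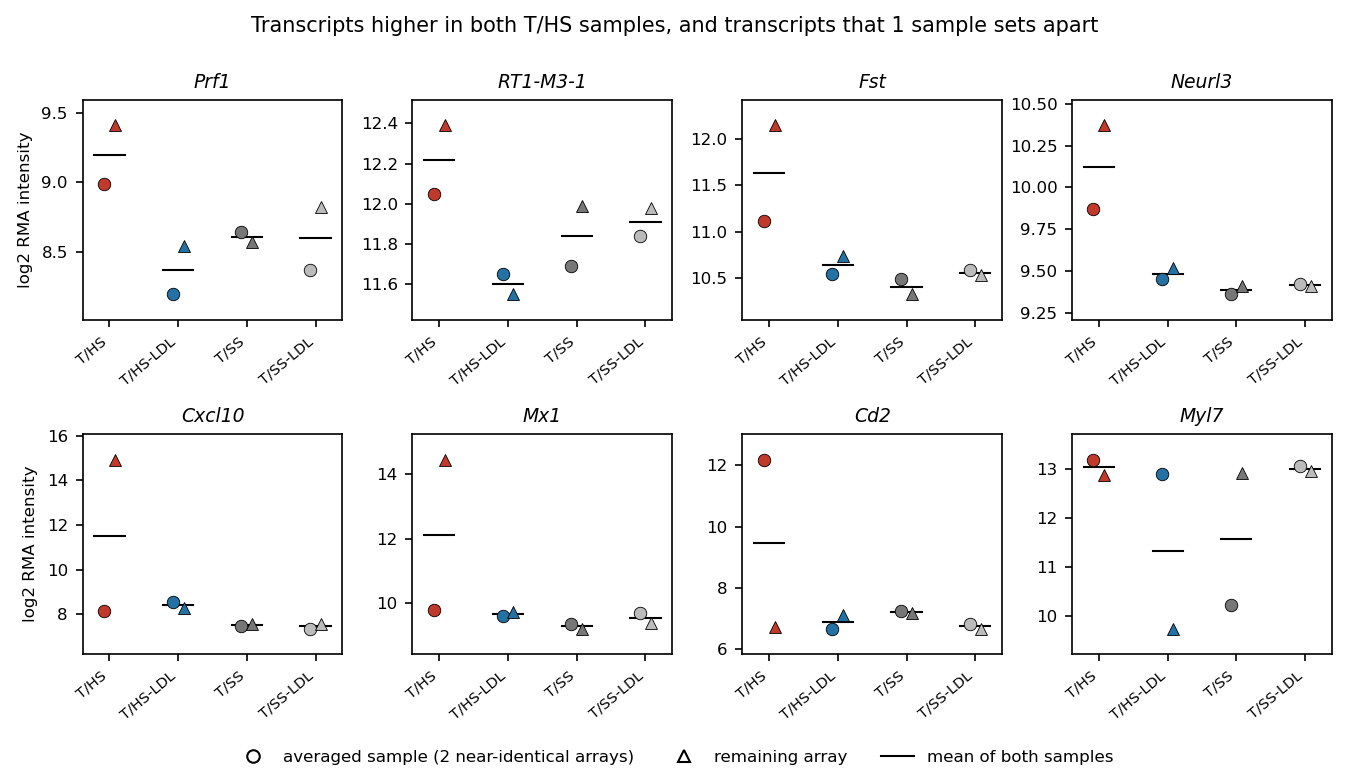
Log2 RMA intensity (y axes) of 8 transcripts by sample in the 4 groups (x axes), with symbols as in the plot of lower transcripts. The upper row shows genes higher in both T/HS samples. In the lower row Cxcl10 and Mx1 are high in T/HS replicate 2, Cd2 in the averaged T/HS sample, and Myl7 is low in T/HS-LDL replicate 2 and the averaged T/SS sample.

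Many of the largest differences of group means belonged to genes that interferons induce, and they were set by T/HS replicate 2. Interferons act through STAT and IRF factors that bind the interferon-stimulated response element. The motif GAAANNGAAA, searched on both strands of the 250 bases before the gene start, occurs in 1140 of 33469 rat promoters (3.41%) and in 8 of the 10 list members with an entry (80%). The promoters of 4 genes with large differences are shown with the motif in capitals (it lies on the opposite strand in Rsad2, Irf7 and Gbp2), from RefSeq's GRCr8 build: Cxcl10 (chr14:15988816-15989065, plus strand), Rsad2 (chr6:48788121-48788370, minus strand), Irf7 (chr1:205800024-205800273, minus strand) and Gbp2 (chr2:234005477-234005726, plus strand).
Cxcl10: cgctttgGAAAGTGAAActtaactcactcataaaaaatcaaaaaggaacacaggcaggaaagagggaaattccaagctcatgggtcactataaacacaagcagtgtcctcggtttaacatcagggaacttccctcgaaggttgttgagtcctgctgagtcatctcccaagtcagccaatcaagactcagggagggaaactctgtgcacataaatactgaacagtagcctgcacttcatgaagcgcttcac
Rsad2: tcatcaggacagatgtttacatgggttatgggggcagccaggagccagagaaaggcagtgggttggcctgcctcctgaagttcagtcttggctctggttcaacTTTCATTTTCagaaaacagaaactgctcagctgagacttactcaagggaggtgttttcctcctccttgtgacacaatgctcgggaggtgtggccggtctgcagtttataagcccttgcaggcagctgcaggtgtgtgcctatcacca
Irf7: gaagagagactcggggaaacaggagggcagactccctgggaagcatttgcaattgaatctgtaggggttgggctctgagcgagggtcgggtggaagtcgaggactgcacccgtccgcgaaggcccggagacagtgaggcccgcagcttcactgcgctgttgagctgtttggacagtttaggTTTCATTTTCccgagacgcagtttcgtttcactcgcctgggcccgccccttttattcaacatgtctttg
Gbp2: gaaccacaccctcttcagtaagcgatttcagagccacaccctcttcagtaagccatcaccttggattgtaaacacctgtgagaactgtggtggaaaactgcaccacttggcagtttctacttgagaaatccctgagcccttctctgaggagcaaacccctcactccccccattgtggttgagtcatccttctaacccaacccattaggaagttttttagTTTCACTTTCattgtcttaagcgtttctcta

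Cxcl10, a chemokine for activated T cells, had 8.12 and 14.92 in T/HS, against 8.54 and 8.26 in T/HS-LDL and 7.35 to 7.58 in the sham samples. Its difference was 3.12 ± 1.84, and the groups overlapped, since the averaged T/HS sample lay below both T/HS-LDL samples. Mx1, an antiviral GTPase, had 9.79 and 14.44 in T/HS, against 9.59 and 9.72 in T/HS-LDL (2.46 ± 1.26). Gbp2, a guanylate-binding protein, had 7.82 and 12.46 in T/HS, against 7.76 and 7.70 in T/HS-LDL (2.41 ± 1.26), and for both genes the groups were apart by less than 0.1. Rsad2 (viperin, which blocks viral replication) had 9.78 and 14.94 in T/HS, against 9.95 and 9.81 in T/HS-LDL (2.48 ± 1.40), with 1.93 ± 0.96 on a second probe set. Irf7, a transcription factor of the interferon response, had 8.90 and 12.33 in T/HS, against 8.60 and 8.69 in T/HS-LDL (1.97 ± 0.94), and 1.63 ± 0.84 on the brighter probe set. Levels of Cxcl10, Rsad2 and the brighter Irf7 probe set in T/HS replicate 2 lay close to the highest values of the array, so their differences may be understated and are not ranked. Oas1b, which also holds the motif and was named after its values were seen, was at 5.73 and 5.81 in T/HS, against 5.73 and 5.67 in T/HS-LDL. All 12 measured genes of the list had higher means in T/HS, 5 were higher without overlap (41.7%, against 17.3% of all genes) and the median was 1.35. Without T/HS replicate 2 the median was 0.05. The summed intensity of the list was 23037 and 155469 in T/HS, against 22670 and 22776 in T/HS-LDL, and 18791 to 21926 in the sham samples.

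Antigen presentation and inflammatory genes followed the same sample. Tap1, the partner of Tap2, had 10.66 and 14.13 in T/HS, against 11.09 and 11.28 in T/HS-LDL, and the immunoproteasome subunit Psmb8 had 12.04 and 13.36, against 11.86 and 12.06. Psmb9, another subunit, had 10.75 and 12.14 in T/HS, against 10.30 and 10.46 in T/HS-LDL, without overlap. The MHC class I gene RT1-A and its light chain B2m were near the top of the scale in every sample, at 14.53 to 14.87, so no difference could be measured reliably for them. Of 12 measured genes of this list, 12 had higher means in T/HS and 4 were higher without overlap (33.3%, against 17.3% of all genes). The list's median of 0.68 was 0.03 without T/HS replicate 2. Ccl2, a monocyte chemokine, was 8.48 and 11.84 in T/HS, against 8.57 and 8.29 in T/HS-LDL. On a second probe set Ccl2 was 8.20 and 9.88, against 8.13 and 7.94, without overlap but by a gap of only 0.08. Nos2, the inducible nitric oxide synthase, reached 12.50 in T/HS replicate 2 on its most variable probe set, against 9.18 in the averaged T/HS sample and 9.86 and 10.64 in T/HS-LDL, while its other probe sets spread over less than 1 unit. Il6 was 6.70 and 8.21 in T/HS, against 6.86 and 6.79 in T/HS-LDL. Between the T/HS samples 206 probe sets were over 2-fold higher in replicate 2 (2.36%) and 45 over 2-fold lower (0.515%). Lower ones included the nucleoside transporter Slc29a1 (12.35 in the averaged sample, 10.20 in replicate 2), the P450 Cyp2e1 (10.59 and 8.28) and Hpgd, which inactivates prostaglandins (9.43 and 7.88).

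The averaged T/HS sample had its own features. Cd2, an adhesion molecule of T and NK cells, was 12.18 there and 6.74 in T/HS replicate 2, against 6.67 and 7.12 in T/HS-LDL and 6.67 to 7.23 in the sham samples. Lck, a kinase of the T cell receptor, was 12.02 and 11.24 in T/HS, against 11.13 and 11.24 in T/HS-LDL. The receptor chains Cd3d (9.54 and 8.54 in T/HS, against 8.66 and 9.01 in T/HS-LDL) and Cd3g (9.60 and 8.88, against 8.92 and 9.14), named after their values were seen, were highest in the same sample. Cd8a, a marker of cytotoxic T cells, was 10.12 and 9.79 in T/HS, against 9.81 and 9.87 in T/HS-LDL. The distance was far wider for Cd2 than for the other T cell genes. In the opposite direction Cga, the alpha chain of pituitary hormones, was 7.16 there and 9.71 in T/HS replicate 2, against 9.63 and 9.67 in T/HS-LDL. A second Cga probe set did not show a drop of this size, at 9.11 and 9.30 in T/HS, against 9.56 and 9.27 in T/HS-LDL. The summed intensity of the T and NK list was 17035 and 10700 in T/HS, against 8643 and 10259 in T/HS-LDL, and 8979 to 10092 in the sham samples. Cd2 and Lck weigh heavily in the sum of the averaged T/HS sample. By the median of the list, levels minus each gene's mean over the 8 samples were 0.23 there and -0.08 in T/HS replicate 2.

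The T/HS-LDL samples differed from each other as well, with 84 probe sets over 2-fold higher in replicate 2 (0.961%) and 71 over 2-fold lower (0.812%). Contractile genes of heart muscle, which in rodents extends along the pulmonary veins into the lung, were low in T/HS-LDL replicate 2. Myl7, an atrial myosin light chain, had 13.20 and 12.89 in T/HS, against 12.90 and 9.74 in T/HS-LDL, 10.23 and 12.92 in T/SS and 13.07 and 12.96 in T/SS-LDL. Myh6, a cardiac myosin heavy chain, had 10.46 and 10.41 in T/HS, against 10.39 and 8.64 in T/HS-LDL, and the cardiac troponin Tnni3 11.17 and 10.90, against 10.83 and 9.84. Of 26 measured heart muscle markers, 24 had higher means in T/HS and 12 were higher without overlap (46.2%, against 17.3% of all genes). But their median of 0.30 was 0.07 without T/HS-LDL replicate 2. Their summed intensity was 45804 and 51861 in T/HS, against 40973 and 22497 in T/HS-LDL, 28362 and 43243 in T/SS and 45712 and 48857 in T/SS-LDL. The averaged T/SS sample was low too. Other genes set the T/HS-LDL samples apart without a clear distance from T/HS. The endothelial adhesion molecule Selp (P-selectin) was 9.25 and 11.95 in T/HS, against 9.51 and 11.41 in T/HS-LDL, and 9.04 to 9.18 in the sham samples, so it was high in 1 sample of each shocked group. Vcam1, which binds leukocytes, showed the same split, at 10.34 and 11.39 in T/HS, against 9.67 and 11.46 in T/HS-LDL. Loxl1, which crosslinks elastin, was 13.20 and 12.68 in T/HS, against 11.82 and 13.74 in T/HS-LDL.

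Neutrophil genes were of interest because gut lymph is known to prime these cells. S100a8, a calcium-binding protein abundant in neutrophils, had 12.37 and 13.39 in T/HS, against 13.44 and 13.58 in T/HS-LDL, 11.87 and 11.18 in T/SS and 12.27 and 12.60 in T/SS-LDL. Its partner S100a9 had 13.55 and 14.65 in T/HS, against 14.73 and 14.68 in T/HS-LDL, where the 3 higher values are close to the top of the scale and have no reliable order. The decoy receptor Il1r2 had 11.40 and 12.43 in T/HS, against 12.79 and 12.53 in T/HS-LDL. Mmp8, neutrophil collagenase, had 9.71 and 10.21 in T/HS, against 10.30 and 11.43 in T/HS-LDL. For S100a8, Il1r2 and Mmp8 both T/HS samples lay just below both T/HS-LDL samples, by 0.10 or less. The members that were higher without overlap were Cyba, a subunit of the NADPH oxidase (13.27 and 13.19 in T/HS, against 13.04 and 13.19 in T/HS-LDL), and the defensin Defa5, named after its values were seen (7.67 and 7.61, against 7.60 and 7.52), each by a gap of 0.01. Of 11 measured neutrophil markers, 6 had higher and 5 lower means in T/HS. Without overlap 4 were lower (36.4%, S100a9 included, against 16.1% of all genes) and 2 higher (18.2%, against 17.3%). The median of 0.01 was -0.30 without T/HS replicate 2 and -0.14 without T/HS-LDL replicate 2. The summed intensity of the list was 49277 and 83986 in T/HS, against 73823 and 82646 in T/HS-LDL, 36917 and 32399 in T/SS and 54890 and 45026 in T/SS-LDL.

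Lists of the lung's own cells and of ribosomal proteins had medians near 0, some of which moved when 1 sample was left out. For 9 measured markers of alveolar type II cells, which make surfactant, the median was -0.01, with 2 higher (22.2%) and 0 lower without overlap. For 15 monocyte and macrophage markers it was 0.06. For 6 markers of the flat alveolar type I cells it was 0.02, but -0.17 without the averaged T/HS sample and 0.17 without T/HS replicate 2. Among 13 endothelial markers, 7 had higher and 6 lower means, and 3 were higher (23.1%) and 2 lower (15.4%) without overlap. These shares are near those of all genes, 17.3% and 16.1%. The median of 0.04 for the endothelial list was -0.37 without the averaged T/HS-LDL sample. Kdr, the endothelial receptor of VEGF, had 11.08 and 10.90 in T/HS, against 11.33 and 11.42 in T/HS-LDL and 11.35 to 11.74 in the sham samples (-0.38 ± 0.16), with both T/HS samples below every other sample. Icam2, an adhesion molecule of endothelium and leukocytes, had 10.30 and 10.27 in T/HS, against 10.52 and 10.94 in T/HS-LDL (-0.44 ± 0.29), also without overlap. Other endothelial markers were higher in T/HS without overlap. Vwf, von Willebrand factor, had 10.73 and 10.68 in T/HS, against 10.62 and 10.14 in T/HS-LDL (0.32 ± 0.17), while a dimmer probe set overlapped (0.12 ± 0.23). Flt1, another VEGF receptor, had 10.93 and 10.99 in T/HS, against 10.81 and 10.64 in T/HS-LDL (0.24 ± 0.14). The 37 measured ribosomal protein genes had a median of -0.04, with 1 higher and 10 lower without overlap (27%).

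**Figure D5:**
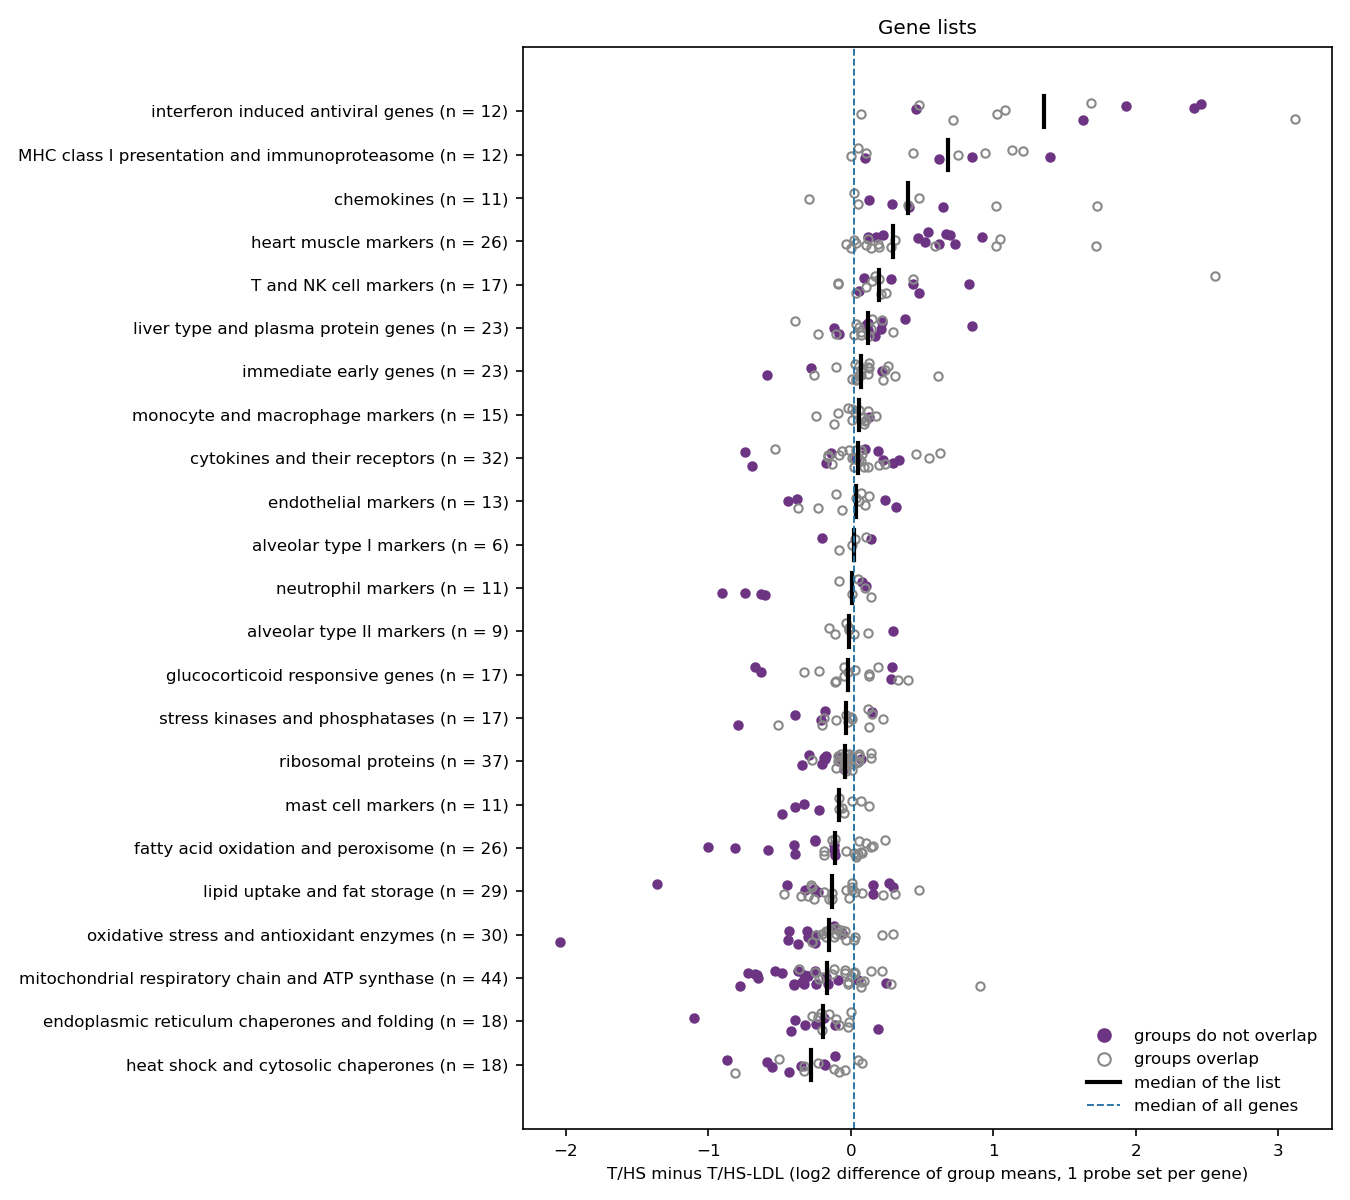
Difference of T/HS minus T/HS-LDL means (x axis, log2) for each measured gene of 23 lists (y axis), with 1 probe set per gene. Filled points are genes whose groups do not overlap, open points genes whose groups overlap, thick bars list medians and the dashed line the median of all genes, 0.02. List medians run from -0.28 (heat shock) to 1.35 (interferon induced genes).

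Whether ligation mattered more in shock than in sham shock was asked by the interaction, the difference T/HS minus T/HS-LDL less the difference T/SS minus T/SS-LDL. Of 8740 probe sets, 0 (0%) passed an adjusted p of 0.05 by limma, the smallest adjusted p was 1, and 261 (2.99%) had an unadjusted p under 0.05. The genes with the smallest p were described by their levels. Mapk12 and Canx had interaction values of -0.93 ± 0.16 and -1.13 ± 0.25, and Cyb5a -1.18 ± 0.27, since their levels were low in T/HS alone. C8h15orf61, an uncharacterised gene, had 10.18 and 10.28 in T/HS, against 10.76 and 10.71 in T/HS-LDL and 10.69 to 10.84 in the sham samples (interaction -0.58 ± 0.13). Gda, guanine deaminase of purine breakdown, had 12.85 and 13.89 in T/HS, against 11.99 and 12.66 in T/HS-LDL. It had 11.49 and 11.41 in T/SS and 12.84 and 12.54 in T/SS-LDL, so the duct-open group was the higher one in shock and the lower one in sham shock (interaction 2.28 ± 0.50). A brighter probe set gave 1.43 ± 0.38, and a dimmer one -0.04 ± 0.16. Tpm1 (tropomyosin) had an interaction of 1.27 ± 0.23 on 1 of its probe sets and between -0.29 and 0.10 on the others. Eef2k, a kinase that slows translation, had 9.77 and 9.18 in T/HS, against 9.67 and 9.86 in T/HS-LDL. It had 9.83 and 10.06 in T/SS and 9.03 and 8.29 in T/SS-LDL, so the interaction of -1.57 ± 0.40 rested mainly on low levels in T/SS-LDL, and a second probe set gave -0.10 ± 0.22.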

How the data were processed

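Per the labels and the submitters' processing notes, the authors scanned lung RNA on one-colour arrays and summarised the probes by RMA (version not given in the sources used here). The deposited values are intensity on a linear scale, and log2 of the deposited intensity was used without further scaling. The array holds 8799 probe sets, from which 59 controls were dropped. Of the 8740 tested, 7006 carried 1 gene symbol in the platform's annotation, 308 several and 1426 none, which left 4736 genes; lists used the probe set with the highest mean. The number of arrays limits the precision.

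Arrays whose log2 differences had a robust SD under 0.1 were averaged, which left 8 samples, 2 per group. One 4-group model was fitted with limma 3.58.1 in R 4.3.3 (lmFit, eBayes), with two-sided p-values adjusted by the Benjamini-Hochberg method over 8740 probe sets and a threshold of 0.05. The fit was tested on simulated data. Promoter stretches came from RefSeq (GRCr8). Named genes were, for each direction, up to 20 with the widest gap and up to 15 with the largest difference. Up to 12 per direction had the largest difference within a group. Over both directions together, up to 15 with the smallest p and 10 by interaction were added. Each of 41 lists gave up to 6 by difference, 4 by gap and 4 by level. Genes named after their values were seen are marked. The members and lists were chosen with earlier results of these data known. Figures used matplotlib 3.10.9.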

Additional observations from a re-analysis of the deposited data

How the results depend on the processing

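With 2 samples per group the comparison of T/HS with T/HS-LDL had 0 calls, and the count stayed at 0 after renewed quantile normalization, centring on array medians, adding 50 to the intensity, leaving out dim probe sets (6555 tested), a trended robust prior, the sample as a random block, a fit of the 4 shocked samples alone, and that fit with a replicate block. Taking the 12 arrays as 12 separate samples gave 372 calls (112 higher and 260 lower in T/HS), and adding a replicate block to them gave 130 (15 higher, 115 lower); both count near-identical arrays as independent. Leaving out 1 sample gave 0 to 66 calls. There were 66 without the averaged T/HS sample (63 higher), where T/HS replicate 2 alone stands for the group, and 4 without T/HS replicate 2, with Cd2, Cga and Slc6a17 among them; a lone sample is assumed to vary like the other groups. The interaction had 1 call with 12 separate arrays, 1 with the replicate block, and 0 to 27 without 1 sample (27 without the averaged T/HS sample, 1 without T/HS replicate 2). Same-numbered samples deviated from their group means with a correlation of 0.124 over probe sets, which cannot settle pairing in 2 groups of 2, and the labels do not say that a number marks a shared animal or day. For 67 of the named genes, each on the probe set with its largest difference, 668 values under settings that keep all samples had 0 reversals. Leaving out dim probe sets, the trended prior and the fits of the 4 shocked samples leave the difference unchanged, so it could not reverse there. Of the 668 values, 68 were past the threshold, all in the fits of 12 separate arrays, which count near-identical arrays as independent. Of 268 values with 1 sample left out, 3 reversed: Cd2 ranged from -0.16 to 5.29, Cxcl10 from -0.28 to 6.52 and Rsad2 from -0.10 to 5.06. Other genes that 1 sample set apart, such as Hspa1a, Tap1 and Cga, were not among the 67, so this count does not cover them. Of 207 list medians under alternatives, 38 moved by more than the spread between samples, and 15 had the other sign.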
